A study of Mus musculus with 15 samples.

Results

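Nxt2 and 7 other genes of nuclear mRNA export were examined in the trigeminal ganglion (TG), the sensory ganglion that holds the cell bodies of the corneal nerves. The members are Nxt2, Nxt1, Nxf1, Ddx39b, Alyref, Thoc1, Thoc2 and Thoc5, 8 of the 55573 genes counted, and all 8 were among the 16567 that passed the filter on low counts. Nxt2 was selected on its higher count in RvD6si than in vehicle in these same libraries, so its values in that comparison, and in RvD6si against RvD6, are given as a description without a test. The other 7 were chosen by function, as the known partners and upstream factors of the NXF1 and NXT pathway. That choice was made with earlier results of these data known.

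The libraries came from male CD1 mice of 10 weeks, all with a wound of 2 mm made in the centre of the right cornea that removed the epithelium and the anterior stroma. The eyes received vehicle, a standard of resolvin D6 (RvD6-standard, here RvD6) or its stereoisomer (RvD6-isomer, here RvD6si) 3 times a day for 12 days, and the right TG was then taken. Vehicle TG carry replicate numbers 1 to 5, RvD6 TG 6 to 10 and RvD6si TG 11 to 15. There was no group without injury, and the dose of the lipids for these mice is not given in the sources used here. Library totals ran from 4125962 to 9903396 counts. Because the whole ganglion was sequenced, fewer cells of a type and less RNA per cell cannot be told apart.

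A messenger RNA leaves the nucleus bound to a heterodimer of NXF1 and a small NTF2-like partner, NXT1, which together dock on the FG repeats of the nuclear pore. Nxt2 encodes a second NTF2-like partner for receptors of the NXF family. The heterodimer is loaded by the TREX complex, in which the helicase DDX39B (UAP56) recruits the adaptor ALYREF and the THO subunits, among them THOC1, THOC2 and THOC5, bind the nascent transcript. In neurons the same route supplies the mRNAs that are translated in the cell body or carried along axons.

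Since Nxt2 and Nxt1 are related genes, their coding sequences were aligned to see how alike they are. Nxt2 lies on chromosome X (GRCm38, 142226770 to 142239692, plus strand) and Nxt1 on chromosome 2 (148672601 to 148676027, plus strand), and no exon of either overlaps another annotated gene. Of the 420 coding bases aligned without a gap, 310 were identical (73.8%), and the longest identical run was 23 bases, against reads from a kit of 75 cycles. The annotated transcripts of each gene were cut into 75-base words. Of these, 0.39% for Nxt2 and 0.72% for Nxt1 also occur in the transcripts of another gene. Only exact matches to annotated transcripts were counted, and whether reads were given to the wrong gene was not tested.

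Nxt2 transcripts were lowest in vehicle TG and higher in every ganglion that had received either lipid. The normalized counts, which are counts divided by the size factor of the library, were 77.1, 101, 93.1, 110.2 and 89.6 in vehicle replicates 1 to 5. They were 168, 204, 157, 508 and 200.3 in RvD6 replicates 6 to 10. In RvD6si replicates 11 to 15 they were 770.2, 356, 365, 489 and 232. The lowest library of either lipid group lay above the highest vehicle library, while the RvD6 and RvD6si libraries overlapped, with 1 RvD6si library above all of RvD6.

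**Figure D1:**
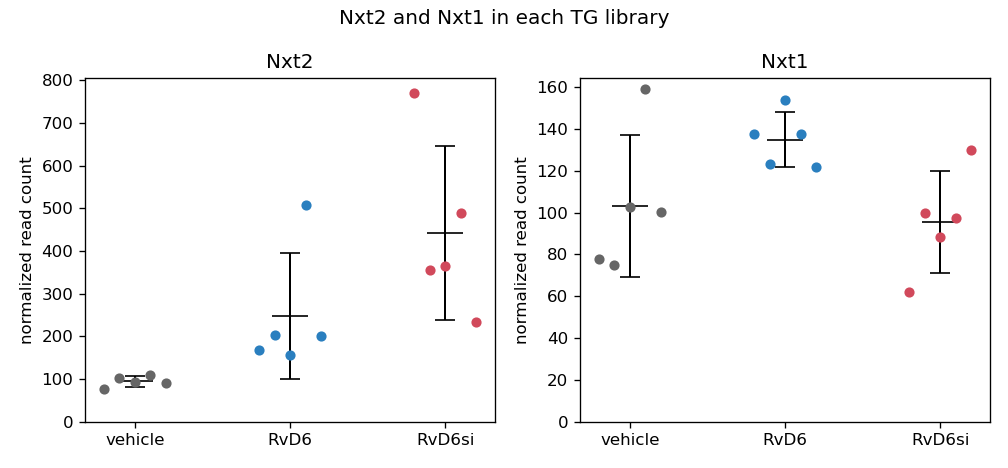
Normalized read counts of Nxt2 and Nxt1 in the 15 TG libraries (points), by group, with the mean and SD of 5 libraries in black. All 10 lipid-treated libraries lie above the 5 vehicle libraries for Nxt2 and overlap them for Nxt1.

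The group means of Nxt2 were 94.3 ± 12.5 in vehicle, 247 ± 147 in RvD6 and 443 ± 204 in RvD6si (SD, n = 5). The coefficient of variation was 13.2% in vehicle, 59.5% in RvD6 and 46.2% in RvD6si. The fitted log2 fold change of RvD6si over vehicle, the value on which the gene was chosen, was 2.23, a fold of 4.68. Its 95% interval of 1.52 to 2.93 does not allow for that choice and is not read as a test. For background, edgeR called 0.67% of the 16567 genes in that comparison, DESeq2 called 8.13% of the genes it adjusted, and in 4.88% of genes the groups did not overlap.

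RvD6 against vehicle compares no RvD6si values, but the RvD6si libraries entered its filter, its normalization and its estimate of the spread. It also shares the vehicle libraries with the comparison that chose Nxt2. In RvD6 against vehicle Nxt2 had a log2 fold change of 1.38 (95% interval 0.68 to 2.07). This missed the threshold in edgeR's quasi-likelihood test (Benjamini-Hochberg adjusted p = 0.114) and passed it in DESeq2 (adjusted p = 0.00692). The interval and both adjusted p-values do not allow for the choice of Nxt2, which used the same vehicle values. In this comparison edgeR called 0.0% of genes, DESeq2 1.92%, and the groups did not overlap in 3.72%. RvD6 replicate 9 held the highest RvD6 value. Without it the log2 fold change was 0.93 (edgeR adjusted p = 0.29), and the other 4 RvD6 libraries still lay above all vehicle libraries.

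RvD6si stood above RvD6 by 0.85 on the log2 scale, with a 95% interval of 0.17 to 1.53. This difference is a description because its RvD6si libraries chose the gene. The interval does not allow for that choice and is not read as a test. The difference moved to 1.30 without RvD6 replicate 9 and to 0.56 without RvD6si replicate 11, the highest library. Without both RvD6 replicate 9 and RvD6si replicate 15, the libraries named in the next paragraph, Nxt2 stood 2.39 above vehicle in RvD6si and 0.94 in RvD6.

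Markers of other cells and library properties differed between libraries and are set beside the Nxt2 values. All 6 skeletal muscle markers had counts, and their sum was 15.5 to 139 CPM (counts scaled to the total of the library) in vehicle, 77.0 to 2223 in RvD6 with the maximum in replicate 9, and 9.21 to 26.9 in RvD6si. The sum of 11 sensory neuron markers was 7254 to 8058 CPM in vehicle, 3866 to 7192 in RvD6 with the minimum in replicate 9, and 6685 to 8358 in RvD6si. Both sums overlapped between RvD6si and vehicle. In RvD6si against RvD6, edgeR called all 6 muscle markers and 0 of the 11 sensory neuron markers, beside 0.235% of all genes tested.

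The sum of 6 erythroid markers was 2263 to 4960 CPM in vehicle and 5691 to 10484 in RvD6, and in RvD6si 967 to 2708 except for 12817 in replicate 15. The 8 markers of granulocyte precursors followed the same order, with 109 to 571 CPM in vehicle, 683 to 2258 in RvD6, and 54.3 to 128 in RvD6si except for 2079 in replicate 15. RvD6si replicate 15, also the smallest library, had the lowest Nxt2 value of its group. The part of these cells in the Nxt2 values was not tested.

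The sums for satellite glia (610.0 to 843 CPM), myelinating Schwann cells (11864 to 21416), endothelium (91.5 to 149) and macrophages (54.4 to 117) overlapped between all groups over the 15 libraries, as did fibroblasts (1222 to 2000.0). Pituitary hormone transcripts varied from 8.68 to 3546 CPM within vehicle alone, and Lhb was at 0 in every library. All lists of ganglion cells had counts for each of their markers.

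Libraries also differed in how counts leaned on gene length, by a slope of -0.11 to 0.00 log2 CPM per doubling of exonic length in vehicle, -0.07 to 0.08 in RvD6 and -0.01 to 0.14 in RvD6si. RvD6si replicate 11 had both the steepest slope and the highest Nxt2 count. With this trend removed from every library, the log2 fold change of Nxt2 was 2.23 in RvD6si and 1.41 in RvD6 against vehicle.

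Nxt1, the usual partner of NXF1, showed no such separation of the groups. Its normalized counts were 77.9, 74.7, 103, 159 and 100.3 in vehicle, 138, 123, 154, 138 and 122 in RvD6, and 62.1, 99.8, 88.5, 97.3 and 130 in RvD6si. All 3 groups overlapped, although 4 of 5 RvD6si libraries lay below every RvD6 library. The log2 fold change was -0.11 in RvD6si (95% interval -0.63 to 0.40, edgeR adjusted p = 0.869) and 0.38 in RvD6 against vehicle (-0.14 to 0.89, edgeR adjusted p = 0.529). Between the isomers it was -0.49 (-1.01 to 0.03, edgeR adjusted p = 0.59), an interval that holds both no difference and a level in RvD6si well under that in RvD6.

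Divided by exonic length, Nxt2 made up a growing part of the NXT transcripts from vehicle to RvD6si. Per kilobase, vehicle TG held 29.7 ± 3.92 normalized counts of Nxt2 and 92.3 ± 30.4 of Nxt1 (SD, n = 5). RvD6 TG held 77.9 ± 46.3 and 121 ± 11.7, and RvD6si TG 139 ± 64.4 and 85.6 ± 21.8. The share of Nxt2 in the sum of both was 25.1% ± 4.62 in vehicle, 37.2% ± 11.6 in RvD6 and 59.7% ± 15.4 in RvD6si, and it ran from 19.5% to 32.3%, from 26.4% to 56.5% and from 38.6% to 81.3%. Because Nxt2 was chosen for its rise, these shares are a description. The 2 genes also differ in exonic length, 3176 bases for Nxt2 and 1116 for Nxt1, and the libraries differed in their slope on length. With the length trend removed, the log2 fold change of Nxt1 against vehicle was 0.09 in RvD6si and 0.51 in RvD6. For Nxt2 it was 2.23 and 1.41. The part of length in the shares was not tested.

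Nxf1, the receptor to which NXT proteins bind, did not pass the test in any comparison. Its normalized counts were 475, 509.8, 373, 444 and 332 in vehicle, 324, 391, 545, 469 and 442 in RvD6, and 319.6, 332, 349, 408 and 387 in RvD6si. The groups overlapped, with 1 RvD6si library (replicate 11) below every library of the other groups. Against vehicle the log2 fold change was -0.25 in RvD6si (95% interval -0.60 to 0.09, edgeR adjusted p = 0.478). In RvD6 it was 0.01 (-0.34 to 0.36, edgeR adjusted p = 0.986). Between the isomers it was -0.26 (-0.61 to 0.09, edgeR adjusted p = 0.693). The upper ends against vehicle, 0.09 and 0.36, lie below the Nxt2 values of 2.23 and 1.38. Those Nxt2 values do not allow for its choice in these libraries.

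The other receptors of the family were nearly absent. Nxf3 and Nxf7 had 0 counts in all 15 libraries, where a 0 in any single library taken alone would allow up to 3 expected counts. Nxf2 had 23 counts in 2 libraries. None of these was tested.

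**Figure D2:**
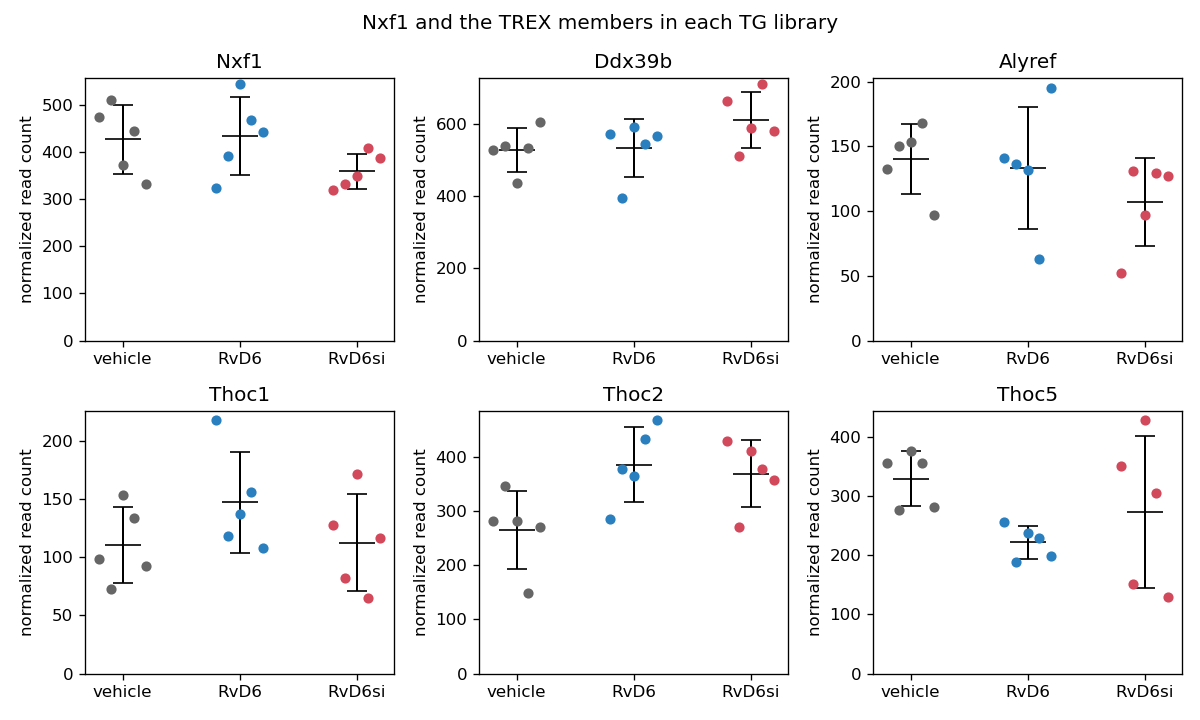
Normalized read counts of Nxf1 and of the TREX members Ddx39b, Alyref, Thoc1, Thoc2 and Thoc5 in the 15 TG libraries (points), by group, with the mean and SD of 5 libraries in black. The groups overlap in every panel except Thoc5, where the 5 RvD6 libraries lie below the 5 vehicle libraries.

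Ddx39b, the helicase of TREX, was the most abundant of the 8 per kilobase in vehicle, at 139.9 ± 16.1 normalized counts per kilobase (SD, n = 5). Its normalized counts were 529, 540.1, 437, 534 and 607 in vehicle, 572, 396, 594, 545 and 568 in RvD6, and 664, 511, 589, 712 and 582 in RvD6si. The groups overlapped, with 2 RvD6si libraries above all vehicle libraries. Fitted log2 fold changes were 0.20 in RvD6si (95% interval -0.11 to 0.52, edgeR adjusted p = 0.537) and 0.00 in RvD6 (-0.31 to 0.31, edgeR adjusted p = 0.996). Ddx39b shares 167 exonic bases (4.41%) with small RNA genes of the same strand.

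Alyref, the adaptor that hands mRNA to NXF1, had normalized counts of 133, 150.4, 153, 168 and 97.0 in vehicle. The counts were 141, 136, 132, 63.2 and 195 in RvD6 and 51.9, 131, 96.8, 129 and 127 in RvD6si. The lowest RvD6 value (replicate 9) and the lowest RvD6si value (replicate 11) belonged to the libraries with the highest Nxt2 of their groups. Against vehicle the log2 fold change was -0.39 in RvD6si (95% interval -1.01 to 0.22, edgeR adjusted p = 0.545) and -0.08 in RvD6 (-0.69 to 0.53, edgeR adjusted p = 0.934).

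Thoc2, the scaffold of the THO complex, was higher in most lipid-treated libraries, but not beyond the threshold. Its normalized counts were 282, 346, 281, 149 and 271 in vehicle, 286, 378, 366, 433 and 468 in RvD6, and 430.3, 270.0, 411, 378 and 358 in RvD6si. In each lipid group 4 of 5 libraries lay above all vehicle libraries. The log2 fold change was 0.47 in RvD6si (95% interval 0.03 to 0.90, edgeR adjusted p = 0.271) and 0.52 in RvD6 (0.09 to 0.96, edgeR adjusted p = 0.286), and DESeq2 gave adjusted p = 0.152 and 0.179. With the length trend removed both values were 0.35. Thoc2 is on chromosome X (41794991 to 41920674, minus strand), as Nxt2 is, and its exonic length of 12666 bases is the greatest of the 8.

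Thoc5, which links THO to NXF1, was lower in every RvD6 library than in vehicle but missed the threshold. Its normalized counts were 355, 277, 376, 355 and 282 in vehicle and 256, 188, 237, 229 and 198 in RvD6, so the groups did not overlap. In RvD6si they were 350.1, 151, 428, 305 and 130, a range wider than that of both other groups. It differed from vehicle by a log2 fold change of -0.58 in RvD6 (95% interval -1.14 to -0.03), with an edgeR adjusted p of 0.345, and -0.27 in RvD6si (-0.82 to 0.28, edgeR adjusted p = 0.671). Between the isomers it was 0.31 (-0.25 to 0.87, edgeR adjusted p = 0.782).

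Thoc1, another THO subunit, had normalized counts of 98.8, 73.0, 154, 134 and 92.9 in vehicle. They were 218, 118, 137, 156 and 108 in RvD6 and 128, 82.3, 172, 65.2 and 117 in RvD6si, and all groups overlapped. On the log2 scale the difference from vehicle was 0.03 in RvD6si (95% interval -0.58 to 0.63, edgeR adjusted p = 0.98) and 0.41 in RvD6 (-0.20 to 1.01, edgeR adjusted p = 0.568). These values are less certain, because 2169 of its 8932 exonic bases (24.28%) overlap Usp14 on the opposite strand and reads there were not counted for either gene.

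**Figure D3:**
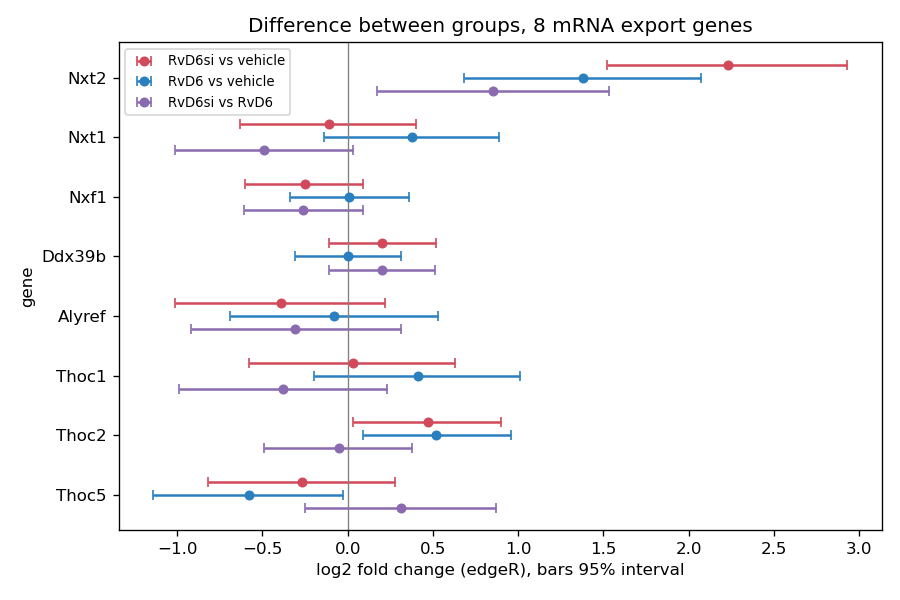
Log2 fold changes fitted by edgeR for the 8 genes in the 3 comparisons (points) with 95% intervals (bars). The intervals of Nxt2 do not allow for its selection in these libraries. Nxt2 lies to the right in both comparisons with vehicle, at 2.23 and 1.38, and the other 7 genes lie between -0.58 and 0.52.

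Counted together, 0 of the 7 members other than Nxt2 passed edgeR's test in RvD6si or RvD6 against vehicle or in RvD6si against RvD6. DESeq2 also called 0 of them in each comparison. Against vehicle edgeR called 0.67% of all genes tested in RvD6si and 0.0% in RvD6. DESeq2 called 8.13% and 1.92% of the genes it adjusted. At an unadjusted p under 0.05, edgeR had 1 of 7 (Thoc2) in RvD6si and 2 of 7 (Thoc2 up, Thoc5 down) in RvD6 against vehicle, where 16% and 13.6% of all genes tested reached it. Between the isomers it had 0 of 7, where 8.82% of all genes reached it. In that comparison edgeR called 0.235% of genes, DESeq2 0.936%, and the groups did not overlap in 1.74%. The median log2 fold change of the 7 was -0.11 in RvD6si, 0.01 in RvD6 and -0.26 between the isomers, beside 0.02, 0.02 and -0.00 over all genes tested. Thoc5 in RvD6 was the 1 case of the 7 members without overlap, read against 3.72% of genes.

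Per kilobase in vehicle, the order after Ddx39b was Thoc5 (115 ± 16.2 normalized counts per kilobase), Nxf1 (96.4 ± 16.5), Nxt1 (92.3 ± 30.4), Alyref (36.6 ± 7.11), Nxt2 (29.7 ± 3.92), Thoc2 (21 ± 5.68) and Thoc1 (12.4 ± 3.67; SD, n = 5). The ranges of neighbours in this order overlapped in every case except that of Nxt1 and Alyref. In RvD6si the mean of Nxt2, 139.4, lay between those of Ddx39b, 161.7 ± 20.6, and Thoc5, 95.4 ± 45.0, and its range of 73.2 to 243 overlapped both.

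A wider set of 78 export genes was then read, taken from lists of the steps around NXF1 and NXT. Of these, 75 were tested. Among them edgeR called 1 in RvD6si, 0 in RvD6 and 0 between the isomers, beside 0.67%, 0.0% and 0.235% of all genes tested. DESeq2 called 4, 2 and 1, beside 8.13%, 1.92% and 0.936% of all genes it adjusted. At an unadjusted p under 0.05 edgeR had 6 up and 8 down in RvD6si, 4 up and 7 down in RvD6, and 3 up and 3 down between the isomers, beside 16%, 13.6% and 8.82% of all genes tested in either direction. The median log2 fold change of the 75 was -0.03 in RvD6si and 0.04 in RvD6 against vehicle, beside 0.02 and 0.02 over all genes tested.

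**Figure D4:**
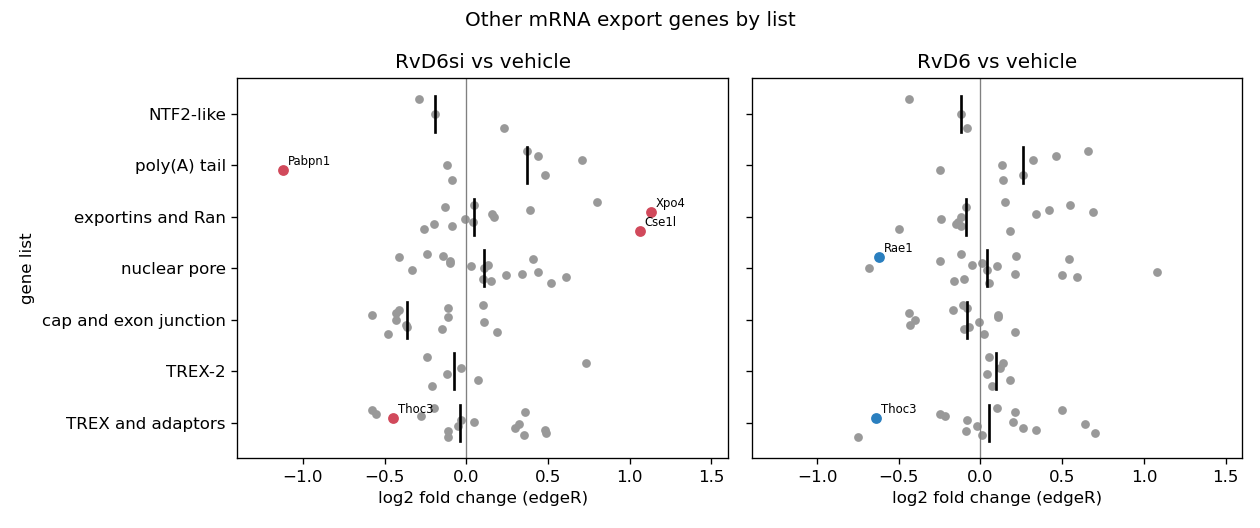
Log2 fold changes of the 75 other export genes tested, by list (points), in RvD6si and RvD6 against vehicle. Black bars mark the median of each list, and genes with a DESeq2 adjusted p under 0.05 are coloured and named, 4 on the left and 2 on the right.

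The gene called by edgeR was Cse1l, the exportin that returns importin alpha to the cytoplasm and does not itself carry mRNA. Its normalized counts were 249.5, 211, 188, 306 and 197 in vehicle, 245, 280.3, 258, 309.9 and 221 in RvD6, and 603, 267, 515, 649 and 366 in RvD6si. Of the RvD6si libraries, 4 of 5 lay above all others. Cse1l rose by a log2 fold change of 1.06 in RvD6si (95% interval 0.59 to 1.53, edgeR adjusted p = 0.0364), and the value was 0.18 in RvD6 (-0.29 to 0.64, edgeR adjusted p = 0.776). The difference between the isomers was 0.88 (0.41 to 1.35), with an adjusted p of 0.156 in edgeR and 0.0243 in DESeq2. The call in RvD6si held in 7 of 15 fits that each left out 1 library, with an adjusted p of 0.0137 to 0.121, and with the length trend removed the adjusted p was 0.0588.

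DESeq2 alone called 3 more in RvD6si. Xpo4, an exportin of proteins, had a mean of 112 ± 59.7 against 50.6 ± 11.6 in vehicle (log2 fold change 1.13, DESeq2 adjusted p = 0.0391, edgeR adjusted p = 0.137). Pabpn1, the nuclear poly(A)-binding protein, had 31.2 ± 17.1 against 68.2 ± 21.1 (-1.12, DESeq2 adjusted p = 0.0499, edgeR adjusted p = 0.148). Thoc3, a THO subunit, had 478 ± 71.3 against 651 ± 62.8 (-0.45, DESeq2 adjusted p = 0.0475, edgeR adjusted p = 0.157).

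Thoc3 was also lower in RvD6, at 549.5, 402, 444, 342 and 371 against 620.0, 654, 568, 675 and 737 in vehicle. The groups did not overlap, and the log2 fold change was -0.64 (DESeq2 adjusted p = 0.00965, edgeR adjusted p = 0.119). Of the 75 genes, 1 lay wholly above vehicle in RvD6 and 4 wholly below, Thoc3 and Rae1 among them. Over all genes tested the groups did not overlap in 3.72%. Rae1, which docks mRNA particles at the pore protein NUP98, was 273, 283, 279, 283 and 256 in RvD6 against 394, 309, 382, 426 and 579.8 in vehicle, with a log2 fold change of -0.62 (DESeq2 adjusted p = 0.0239, edgeR adjusted p = 0.142). Both comparisons share the vehicle libraries with those of RvD6si.

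By list, the TREX genes and adaptors had a median log2 fold change of -0.04 in RvD6si and 0.06 in RvD6 over 16 genes. The cap-binding and exon junction genes had -0.36 and -0.08 over 13 genes, with 3 of 13 above 0 in RvD6si, where 51.2% of all genes tested were above 0. In RvD6si edgeR and DESeq2 called 0 of these 13. At an unadjusted p under 0.05 in edgeR, 4 of them were lower and 0 higher. Over all 16567 genes tested, 1209 were lower and 1439 higher at that level, 16% in either direction. The nuclear pore genes had 0.11 and 0.04 over 17, the exportins and Ran genes 0.05 and -0.09 over 13, and the poly(A) tail genes 0.37 and 0.26 over 7. The 6 TREX-2 genes had -0.07 and 0.10, and the 3 other NTF2-like genes (Nutf2, G3bp1 and G3bp2) -0.19 and -0.12.

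The genes whose log2 CPM was most like that of Nxt2 over the 15 libraries lay outside the export lists. They were Klhl7, a ubiquitin ligase adaptor (Pearson r = 0.96), Slc16a1, the lactate transporter MCT1 (0.96), Reep5, a shaper of the endoplasmic reticulum (0.95), Ppp1r2, an inhibitor of protein phosphatase 1 (0.95), and Ugt8a, an enzyme of myelin galactolipids (0.95). Slc16a1 had a mean normalized count of 171 ± 39.8 in vehicle, 353 ± 168 in RvD6 and 578 ± 154 in RvD6si (SD, n = 5). Part of such a likeness comes from the group means that chose Nxt2. Of the 16566 other genes tested, 230 (1.39%) had an r with Nxt2 above 0.8 and 201 (1.21%) below -0.8.

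After each group mean was subtracted, the highest values were those of Ppp1r2 (0.91), Ube2d3 (0.90), Gm15801 (0.88), Calu (0.88) and Trarg1 (0.88). Of the 7 members, Thoc2 came nearest before subtraction, at 0.56, and had 0.22 after it. Thoc5 came nearest after subtraction, at 0.41, and had -0.15 before it. Nxt1 had -0.17 before and -0.33 after subtraction, and Alyref -0.64 and -0.71. The points of these correlations share library size, cell makeup and the length slope of the libraries.

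**Figure D5:**
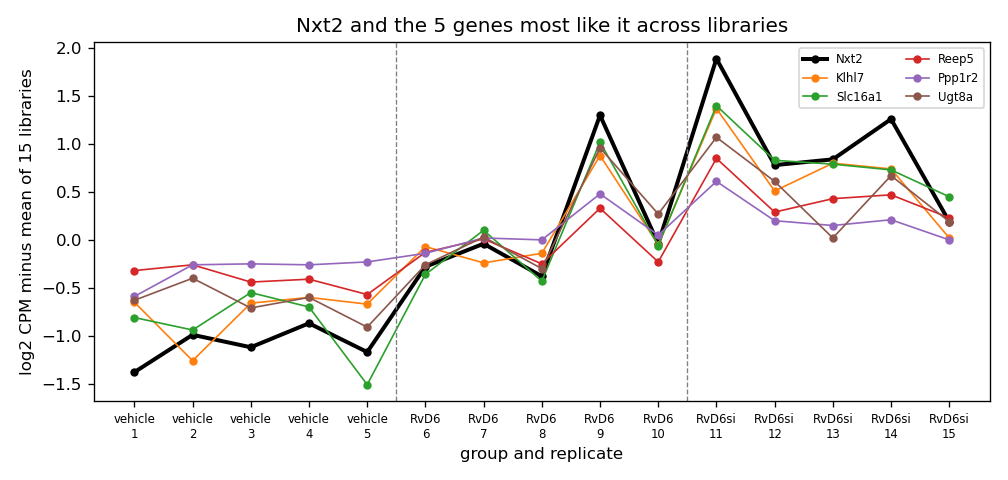
Log2 CPM of Nxt2 (thick black) and of the 5 genes most like it, each minus its mean over the 15 libraries, with lines drawn only to join the points of a gene. RvD6 replicate 9 and RvD6si replicate 11 are the highest of their groups for Nxt2, which ranges more widely than the other 5.

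Around Nxt2 on chromosome X, 8 genes whose start lies within 500 kb were tested, 3 of them protein-coding. None was called by edgeR or DESeq2 in any of the 3 comparisons. Over all genes tested edgeR called 0.67% in RvD6si, 0.0% in RvD6 and 0.235% between the isomers. DESeq2 called 8.13%, 1.92% and 0.936% of the genes it adjusted. In RvD6si against vehicle DESeq2 gave no adjusted p for Kcne1l and Gm4995. In RvD6si against vehicle, the coding genes had log2 fold changes of 1.35 for Kcne1l (edgeR adjusted p = 0.477, 146 counts in all libraries), 0.58 for Acsl4, an acyl-CoA synthetase (edgeR adjusted p = 0.357), and 0.81 for Tmem164 (edgeR adjusted p = 0.153, DESeq2 adjusted p = 0.0535). The 5 pseudogenes Gm6368, Gm6382, Gm5643, Gm4995 and Gm5763 lay between -0.33 and 0.57.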

How the data were processed

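The authors aligned the reads of adapted Smart-seq2 libraries to GRCm38 with Rsubread and GENCODE release 22 and deposited raw read counts per gene from featureCounts, without normalization; the header of the table names v1.5.0-p1 and the submitters' processing notes Subread 1.6.5. Strand was not used. Gene names and positions were taken from GENCODE release 21, which named 99.7% of identifiers. Ddx39a and Nup42 were matched by RefSeq synonyms.

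Differences were tested on the counts by the quasi-likelihood fit of edgeR 4.0.16 (R 4.3.3) on all 15 samples, with TMM, a minimum count of 10 and total of 15 in its filter, and Benjamini-Hochberg adjustment over 16567 genes at 0.05. DESeq2 1.42.0 was an alternative and gave the size factors. Log2 CPM used a prior count of 2. The steps were tested on simulated data. The 8 members and all lists were chosen with earlier results of these data known. Genes named were the members, export genes called by edgeR or DESeq2, the 5 most like Nxt2 with and without group means, and its neighbours. The labels give no pairing or batch, nor whether each library was 1 mouse, so p-values measure the spread between libraries. The coding sequences compared are not reported here.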

Additional observations from a re-analysis of the deposited data

Results flagged for a closer look

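Each member was examined in each group of 5 libraries, 24 groups in all, for a library whose gap to the nearest other exceeded 0.71 of the range of the group, which chance gives in about 1 of 20 groups. In the RvD6 group, replicate 9 had 508 normalized counts of Nxt2 against 157 to 204 in the other 4. The same library had the fewest sensory neuron and the most muscle transcripts, and the part of these in its Nxt2 value was not tested. Replicate 7 of RvD6 had 396 normalized counts of Ddx39b against 545 to 594 in the other 4.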

How the results depend on the processing

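The log2 fold change of Nxt2 in RvD6si against vehicle stayed between 1.94 and 2.39 over all alternatives. That range is a description, because every fit reuses libraries that chose Nxt2. No member other than Nxt2 passed the threshold in any alternative. In RvD6 against vehicle, 1 member (Nxt2) was called with DESeq2 and 0 in every edgeR fit. That DESeq2 call uses the vehicle libraries that helped choose Nxt2. Counts over all genes moved. In RvD6si against vehicle edgeR called 111 genes, DESeq2 920, the stricter filter of 10 counts in every sample gave 315, the fit with the length trend removed 63, and leaving out 1 library 0 (RvD6si replicate 11) to 229 (RvD6 replicate 9), with 6 to 13 for each vehicle library. In RvD6 against vehicle they were 0, 369 with DESeq2, 56 without a filter, 24 with 10 counts in every sample, 38 with the 2 groups compared only, and 0 to 51 with 1 library left out (RvD6si replicate 15). Between the isomers they were 39, 185, 59, 23 and 17 in the same order, and 2 (RvD6si replicates 11, 13 and 14) to 156 (RvD6si replicate 15). Without both RvD6 replicate 9 and RvD6si replicate 15, chosen after seeing the data, the 3 counts were 248, 38 and 147. Calls among the 75 other export genes in RvD6si went from 1 to 4 with DESeq2, to 0 with the 2 groups compared only or the length trend removed, and from 0 to 1 with 1 library left out. They went from 0 to 2 with DESeq2 in RvD6, and between the isomers from 0 to 1 with DESeq2 and from 0 to 1 with 1 library left out. Of 506 values for the other member comparisons, 20 changed sign, none with a main value over 0.3. The cause of these shifts was not tested. With 5 libraries a group, the spread between libraries limits what small differences can show.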

Other observations

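The 100 genes most like Nxt2 across libraries (Pearson r from 0.85 to 0.96), a number chosen after the values were seen, had a median exonic length of 4580 bases and a median of 1953 exonic bases after the coding end, beside 3969 and 1227 over all other genes tested. The 100 most opposite genes (r from -0.95 to -0.84) had medians of 1274 and 296. Nxt2 itself has 3176 exonic bases and up to 1868 after the coding end, and Nxt1 has 1116 and up to 267. The relation of these lengths to the library slopes on gene length was not tested.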
